A study of Mus musculus with 4 samples.

Results

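The 10 genes described here mark glia and blood vessels of the brain: Mbp and Opalin for oligodendrocytes, Gja1 and Ntsr2 for astrocytes, Aif1 and Laptm5 for microglia, Slco1c1 and Ly6c1 for endothelial cells, and Rgs5 and Acta2 for mural cells. They were chosen as markers of cells that were not expected to carry the ribosome tag, and every probe that the platform annotation gives to 1 of these symbols was taken. This gave 10 of the 16593 genes named by the annotation, with 17 of the 25697 probes on the array. RNA bound to tagged ribosomes had been precipitated from punches of the mouse mediobasal hypothalamus and read on MouseRef-8 v2 beadchips. In the lineage group (2 arrays) mice carrying the Pomc-Cre transgene had been crossed to RiboTag mice, and in the virus-injected group (2 arrays) Pomc-Cre mice had received the Cre-dependent vector AAV-DIO-RiboTag. All animals therefore carried Pomc-Cre, in which Pomc regulatory sequence drives the recombinase, and strain, age and sex were not given in the labels used here. The labels call the lineage samples "Pomc-derived lineage" and the virus-injected samples "adult POMC neuron". They do not say whether an array stands for 1 animal or a pool, so p-values rest on the scatter among these 4 arrays, which could be technical.

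A RiboTag allele places a hemagglutinin epitope on the ribosomal protein RPL22 wherever Cre is or has been active. The Cre-dependent vector does so only in cells that it infected and in which Cre is active from then on. An antibody to the epitope then pulls down ribosomes with the messages they are translating. Messages of untagged cells in the same punch can be carried along, and markers of glia and vessels are commonly read to see how much of that RNA is present. In hypothalamus, oligodendrocytes make myelin, astrocytes take up transmitter and form gap-junction networks, microglia are the resident phagocytes, endothelial cells form the blood-brain barrier, and mural cells (pericytes and smooth muscle) wrap the vessels. Neither an unprecipitated input nor a precipitate from mice without Cre was analysed here, so the values compare the groups and do not give an enrichment over tissue. In such bulk precipitated RNA, fewer cells of a type, less RNA per cell and less RNA carried along with the tagged ribosomes cannot be told apart.

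Genes of the labelled cell type were looked up first. Without an input, their detection does not show which cells were tagged. Pomc, the gene of the precursor of melanocortins and beta-endorphin, was at 12.17 ± 0.11 (SD, n = 2; log2 normalized intensity) on the virus-injected arrays and 12.83 ± 0.11 on the lineage arrays. The synaptic vesicle fusion gene Snap25 was at 8.80 ± 0.06 and 8.92 ± 0.05. All 16 pan-neuronal genes and all 5 POMC neuron genes that were looked up had a tested probe. An array detected between 10982 and 12306 probes at a detection p-value under 0.05, and a probe was read from a median of 38 to 39 beads. The lowest intensity that counted as detected was 599, 587, 553 and 644 on virus-injected arrays 1 and 2 and lineage arrays 1 and 2. All 4 arrays lay on 1 beadchip, at positions B, D, F and H, so position cannot be told apart from group.

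Most probes of the 10 glial and vascular genes were detected in the precipitates of both groups. Most had a lower mean in the lineage group, but none of these differences passed the test over all probes. In wider marker lists, which include the 10 genes themselves, 5 of 14 oligodendrocyte and 4 of 15 astrocyte genes were detected on no array. The same held for 9 of 15 microglial, 9 of 17 endothelial and 9 of 12 mural genes. Of all probes, an array detected 42.7% to 47.9%, and the share of all genes detected on no array was not counted. Of the 17 probes, 14 entered the test, as did 12266 of the 25697 probes on the array. The test required detection on 2 or more of the 4 arrays. The 14 covered all 10 genes, and 11 were detected on all 4 arrays. None of the 14 had entered through 1 group alone. The mean was lower in the lineage group for 15 of the 17 probes and higher for 2, both of the latter reading Acta2. Among the 14 tested probes it was lower for 12, where 49.4% of all tested probes had a lower mean there. The median difference of the 17 probes was -0.49 on the log2 scale, against 0.0040 over all probes on the array.

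In the limma fit 0 of the 14 probes passed an adjusted p of 0.05, and neither did any of the 12266 probes tested (0%). At an unadjusted p under 0.05, 5 of the 14 were lower in the lineage group and 0 higher, where 5.55% of all tested probes were lower and 4.84% higher. On 8 of the 14 both lineage arrays lay below both virus-injected arrays, as did 21.4% of all tested probes, and on 2 both lay above, as did 21.9%. When the spread was allowed to follow the brightness (eBayes with a trend), Mbp, Rgs5 and Gja1 passed with 1 probe each, all lower in the lineage group, where 1.08% of all tested probes were called lower and 0.815% higher. With 2 arrays a group the smallest two-sided p of an exact permutation test is 0.333, and probes were therefore judged by the limma fit.

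**Figure D1:**
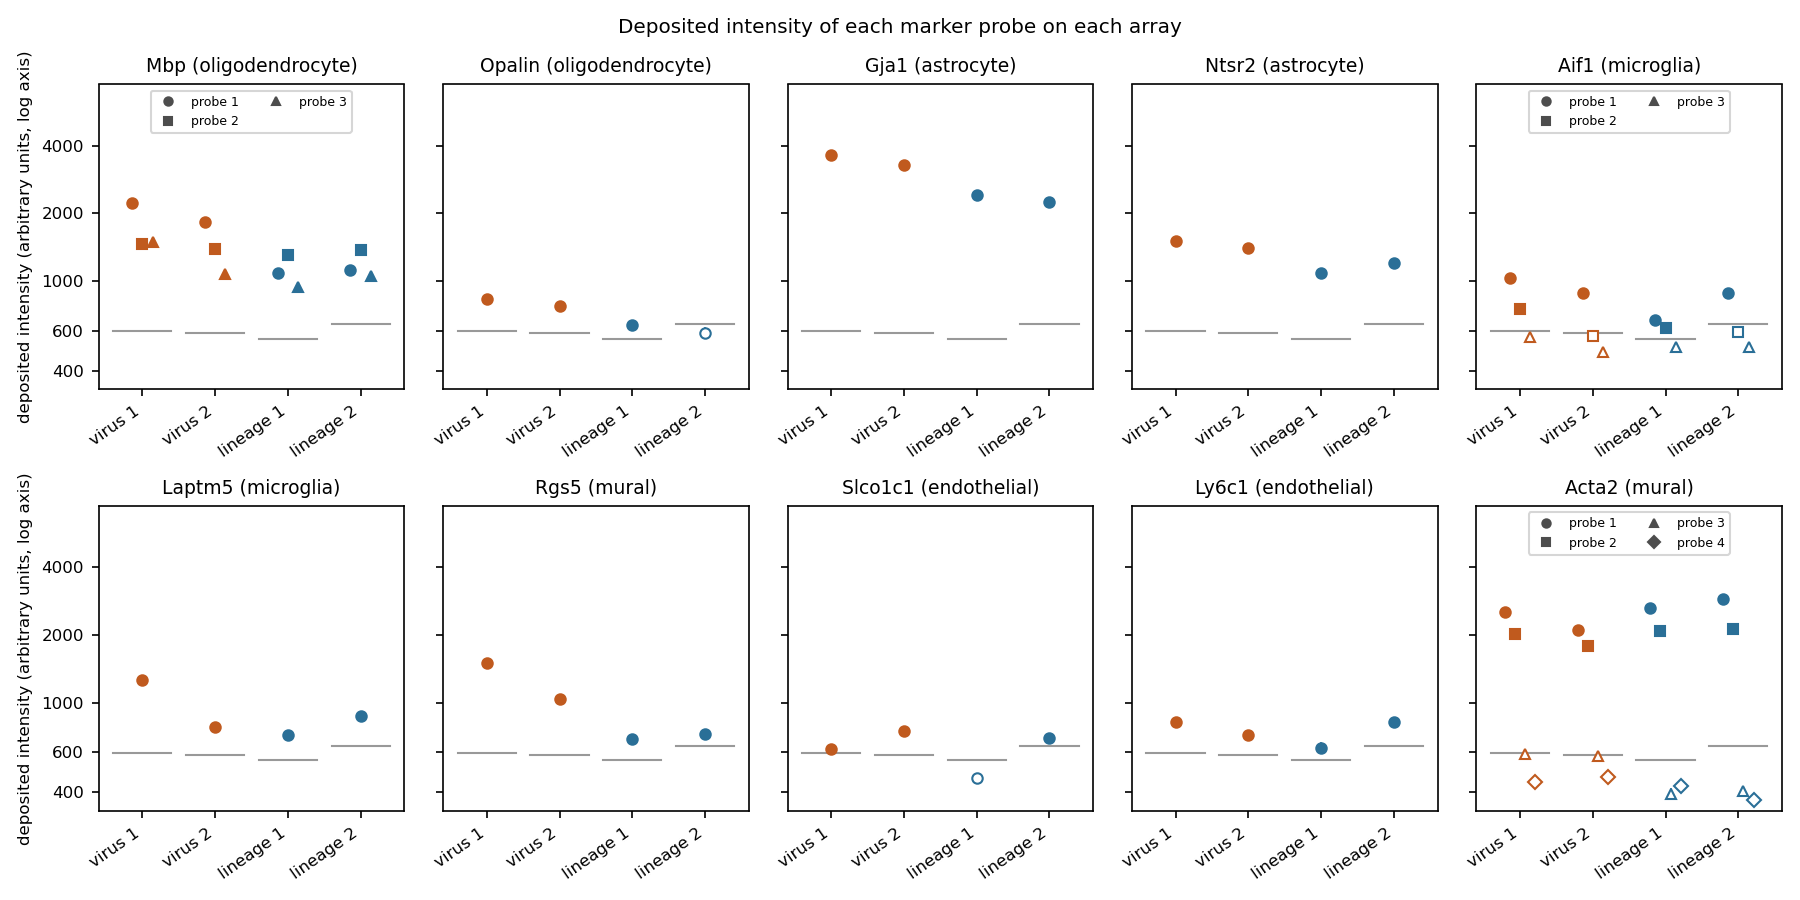
Deposited intensity (arbitrary units, log axis) of the 17 probes on each array, in orange for virus-injected and in blue for lineage arrays, with bars for the standard error over beads where they exceed the symbol. Grey lines mark the lowest detected intensity of each array and open symbols are probes not detected there; both Rgs5 values of the lineage arrays, 689 and 722, sit just above the line.

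Mbp encodes myelin basic protein, the protein that compacts the myelin sheath, and its 3 probes did not give 1 answer. On Mbp probe 1 (ILMN_2737200) the deposited intensity was 2233 and 1840 on the virus-injected arrays and 1090 and 1126 on the lineage arrays. The groups did not overlap, and the arrays within each group lay closer to each other than to the other group. The normalized level was 10.63 ± 0.16 (SD, n = 2) against 9.44 ± 0.03, which is 2.27-fold higher in the virus-injected group (log2 difference -1.18, SE 0.16, 95% interval -1.61 to -0.76, limma adjusted p = 0.295; 0.00295 with a trend and up to 0.789 over its alternatives). Without background correction this probe passed as well (-0.84, limma adjusted p = 0.0288), where 0.204% of all tested probes were called lower and 0.163% higher. Only 0.669% of all tested probes had a difference as low or lower.

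The other Mbp probes were flatter. Mbp probe 2 (ILMN_3011353) read 1470 and 1395 on the virus-injected arrays and 1311 and 1376 on the lineage arrays, with bead errors of 47.9 to 56.8, and all 4 arrays lay close together. Its log2 difference was -0.10 (SE 0.14, 95% interval -0.48 to 0.28). Mbp probe 3 (ILMN_3081854) read 1486 and 1080 against 945 and 1056, so that virus-injected array 1 stood above the other 3 arrays. Its difference was -0.49 (SE 0.24, limma adjusted p = 0.550) and shrank to -0.21 without virus-injected array 1.

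Probe 1 is annotated to a different RefSeq transcript from probes 2 and 3. The Mbp locus is known to make, besides the myelin proteins, longer golli transcripts that are also found in neurons and immune cells, and which transcripts each probe reads was not analysed here. Within an array, the log2 level of Mbp probe 1 minus that of probe 2 was 0.80 and 0.53 on the virus-injected arrays and -0.40 and -0.44 on the lineage arrays. The 0 of this ratio has no meaning, since it sets different probes side by side, and only its shift between the groups can be read. The shift was -1.09 (exact permutation p = 0.333, two-sided, and 0.333 after Benjamini-Hochberg adjustment over the 5 ratios computed). The design cannot give a lower p, so this test could not decide whether the Mbp probes changed unequally.

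Opalin encodes a small membrane glycoprotein of myelinating oligodendrocytes. Its probe (ILMN_2824889) read 832 and 779 on the virus-injected arrays and 637 and 588 on the lineage arrays, where the second array was not above background. The groups did not overlap, yet all 4 values were close to the limit of detection. The level was 8.55 ± 0.06 (SD, n = 2) against 7.64 ± 0.41, a log2 difference of -0.91 (SE 0.24, 95% interval -1.55 to -0.28, limma adjusted p = 0.383). Without background correction the difference was -0.37.

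Of 14 oligodendrocyte genes looked up on the array, 8 had a tested probe. All 8 had a lower mean in the lineage group, as did 49.4% of all tested probes. At an unadjusted p under 0.05, 2 of 11 tested probes, those of Mbp and Opalin, were lower, as were 5.55% of all tested probes. Beside them Mal, a proteolipid of myelin membranes, had the next smallest p and lay at -0.40 (SE 0.16, limma adjusted p = 0.493). The median of the 8 genes was -0.34 and that of all 14 was -0.27, and 0 probes passed. Mog, Ermn, Ugt8a, Aspa and Fa2h, further genes of myelinating cells, were detected on none of the arrays. The normalized intensities of the list summed to 10110 and 10480 on the virus-injected arrays and to 7918 and 6946 on the lineage arrays. These sums include the probes of Mbp and Opalin.

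Both astrocyte markers were lower on each lineage array than on each virus-injected array. Gja1 encodes connexin 43, the main gap-junction protein of astrocytes, which endothelial and other cells also make. Its probe (ILMN_1244291) read 3627 and 3281 on the virus-injected arrays and 2419 and 2252 on the lineage arrays. All 4 arrays were far above the limit of detection, and the groups did not overlap. The level was 11.54 ± 0.03 (SD, n = 2) against 10.93 ± 0.14, 1.53-fold higher in the virus-injected group (log2 difference -0.61, SE 0.16, 95% interval -1.03 to -0.20, limma adjusted p = 0.382; 0.0224 with a trend and up to 0.789 over its alternatives). With 1 array left out the difference ran from -0.71 to -0.52.

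Ntsr2 encodes the low-affinity neurotensin receptor, which in brain is found mainly in astrocytes. The probe (ILMN_2769234) read 1501 and 1409 against 1087 and 1210. Again both lineage arrays lay below both virus-injected arrays. The level was 9.99 ± 0.02 (SD, n = 2) against 9.52 ± 0.09, a 1.39-fold difference (log2 -0.47, SE 0.15, 95% interval -0.87 to -0.08, limma adjusted p = 0.427). The range with 1 array left out was -0.54 to -0.41.

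Of 15 astrocyte genes on the array 9 had a tested probe. Of these, 8 had a lower mean in the lineage group, as did 49.4% of all tested probes, and 1 a higher mean. At an unadjusted p under 0.05 there were 4 lower, Gja1 and Ntsr2 among them, and 0 higher. Of all tested probes 5.55% were lower and 4.84% higher at that threshold. In the list 0 passed the adjusted threshold. The 2 genes beside Gja1 and Ntsr2 were Mlc1, an astrocyte membrane protein of the perivascular endfeet, at -1.45 (SE 0.34, limma adjusted p = 0.357; 0.0193 with a trend), and Itih3, a secreted matrix-binding protein, at -0.63 (SE 0.18, limma adjusted p = 0.408). The median was -0.32 over the 9 genes and -0.29 over all 15. Gfap, Agt, Sox9 and Slc6a11 were not detected on any array, although the first is the classical astrocyte filament gene. The summed level of the list was 17800 and 16160 on the virus-injected arrays and 13260 and 13090 on the lineage arrays. Gja1 and Ntsr2 are part of these sums.

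**Figure D2:**
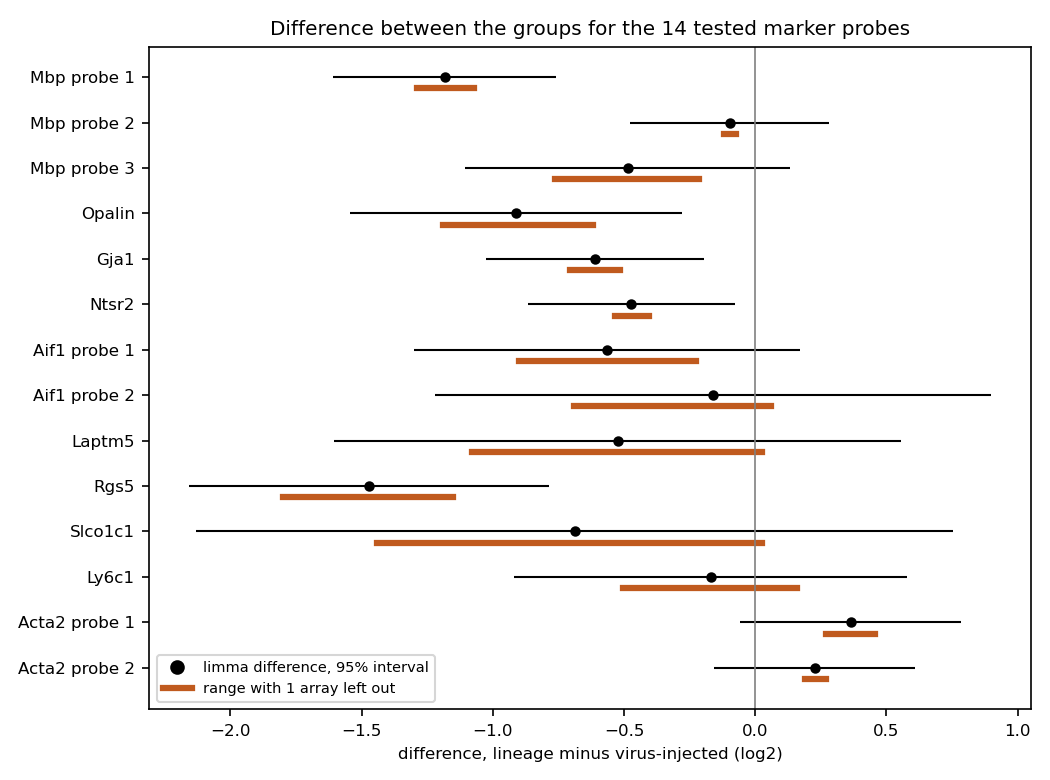
Log2 difference, lineage minus virus-injected, of the 14 tested marker probes: points and black lines give the limma estimate with its 95% interval, not adjusted for the number of probes, and orange bars the range when 1 array was left out. The intervals of Mbp probe 1, Opalin, Gja1, Ntsr2 and Rgs5 lie below 0, and the orange bars of Aif1 probe 2, Laptm5, Slco1c1 and Ly6c1 cross 0.

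The microglial markers were dim and their replicates disagreed. Aif1 encodes IBA1, the calcium-binding protein stained to show microglia, and had 3 probes annotated to the same transcript. Aif1 probe 1 (ILMN_1218123) read 1033 and 881 on the virus-injected arrays and 671 and 885 on the lineage arrays. The deposited values overlapped, since lineage array 2 matched virus-injected array 2, and after normalization the lineage arrays were lower by a small margin (8.12 and 8.80 against 9.17 and 8.88). The difference was -0.56 (SE 0.28, 95% interval -1.30 to 0.17, limma adjusted p = 0.556), and -0.23 without lineage array 1.

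Aif1 probe 2 (ILMN_2804487) read 755 and 567 against 619 and 594 and was detected on 1 of 2 arrays in each group. The groups overlapped. The log2 difference was -0.16 (SE 0.40) and turned to 0.061 without lineage array 2. Aif1 probe 3 (ILMN_1212938) was detected on no array, with intensities of 482 to 562, and was not tested.

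Laptm5, a lysosomal membrane protein of blood-derived cells and microglia, was read by 1 probe (ILMN_1217849) at 1266 and 781 on the virus-injected arrays and 721 and 868 on the lineage arrays. Virus-injected array 1 stood alone above the other 3, and the groups overlapped. The gap between the virus-injected arrays was 10.4 times its bead error, the widest such gap among the 17 probes. The level was 9.08 ± 0.78 (SD, n = 2) against 8.55 ± 0.27, a difference of -0.52 (SE 0.41, 95% interval -1.60 to 0.55, limma adjusted p = 0.695), and without virus-injected array 1 it turned to 0.027.

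Only 3 of 15 microglial genes on the array had a tested probe, Aif1, Laptm5 and the lysosomal protease gene Ctss, which lay at -0.17 (SE 0.20, limma adjusted p = 0.795) and was detected on 1 of 2 arrays in each group. The 3 had a median of -0.52, but over all 15 genes the median was 0.09, with 6 lower and 9 higher. None of the list's probes reached an unadjusted p under 0.05. The complement genes C1qa, C1qb and C1qc, the receptor genes Trem2 and P2ry12, and Itgam, Fcer1g, Cd53 and Ptprc were not detected on any array. The list summed to 3317 and 2344 on the virus-injected arrays and 2348 and 2663 on the lineage arrays, so these sums overlapped.

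Of the mural cell genes, Rgs5 had a lower mean in the lineage group and the detected probes of Acta2 a higher one, and neither passed the test. Rgs5, a regulator of G protein signalling that is abundant in pericytes, was read by 1 probe (ILMN_2979824) at 1506 and 1041 on the virus-injected arrays and 689 and 722 on the lineage arrays. The virus-injected arrays were both higher but far apart from each other, by 7.0 times the bead error, while the lineage arrays lay close together. The level was 9.66 ± 0.47 (SD, n = 2) against 8.19 ± 0.04, 2.77-fold higher in the virus-injected group (log2 difference -1.47, SE 0.26, 95% interval -2.16 to -0.79, limma adjusted p = 0.303; 0.0130 with a trend and up to 0.789 over its alternatives). This was the lowest difference among the 17 probes, and 0.302% of all tested probes were as low or lower. It was -0.79 without background correction, and -1.15 without virus-injected array 1, the higher of the virus-injected pair.

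Acta2 encodes the alpha actin of vascular smooth muscle and had 4 probes, all annotated to 1 transcript. Acta2 probe 1 (ILMN_2710354) read 2531 and 2109 on the virus-injected arrays and 2626 and 2894 on the lineage arrays. Acta2 probe 2 (ILMN_2710353) read 2025 and 1793 against 2078 and 2119. On both, each lineage array was above each virus-injected array, and virus-injected array 1 lay closer to lineage array 1 than to virus-injected array 2 in deposited intensity.

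The log2 differences were 0.36 (SE 0.16, 95% interval -0.06 to 0.78, limma adjusted p = 0.515) for Acta2 probe 1 and 0.23 (SE 0.15, 95% interval -0.16 to 0.61, limma adjusted p = 0.636) for probe 2. Acta2 probe 3 (ILMN_2693895) read 590 and 580 against 393 and 406, the opposite order, but was not above background on any array (detection p 0.0564 to 0.599), and probe 4 (ILMN_2923445) lay between 370 and 469 and was also not detected. Actin genes are close in sequence, and whether the Acta2 probes tell them apart was not tested. The level of Rgs5 minus that of Acta2 probe 1 was -0.97 and -1.44 on the virus-injected arrays and -2.96 and -3.11 on the lineage arrays, a shift of -1.83 (exact permutation p = 0.333, two-sided, the smallest possible, and 0.333 after Benjamini-Hochberg adjustment over 5 ratios).

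Rgs5 and Acta2 were the only genes with a tested probe among 12 mural cell genes on the array. Pdgfrb, Kcnj8, Abcc9, Higd1b, Notch3, Des and Anpep were not detected on any array, nor were Tagln and Myh11, which smooth muscle makes together with Acta2. The median over the 12 genes was -0.25, with 7 lower and 5 higher. The list, its Rgs5 and Acta2 probes included, summed to 5889 and 5302 on the virus-injected arrays and 5394 and 5505 on the lineage arrays.

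For both endothelial markers the groups overlapped. Slco1c1, the thyroid hormone and organic anion transporter OATP1C1 of the blood-brain barrier, which some astrocytes and tanycytes also make, was read by 1 probe (ILMN_1242173) at 624 and 744 on the virus-injected arrays and 461 and 693 on the lineage arrays. Lineage array 1 was at background, and lineage array 2 lay between the virus-injected arrays. The difference of -0.69 (SE 0.55, 95% interval -2.13 to 0.75, limma adjusted p = 0.701) turned to 0.026 without lineage array 1.

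Ly6c1 encodes a surface protein of capillary endothelium and of some monocytes. Its probe (ILMN_1254927) read 823 and 719 against 631 and 819. Lineage array 1 was again the lowest, and the other 3 arrays overlapped. The level was 8.40 ± 0.24 (SD, n = 2) against 8.23 ± 0.47, a difference of -0.17 (SE 0.28, 95% interval -0.92 to 0.58, limma adjusted p = 0.873), which became 0.16 without lineage array 1.

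Of 17 endothelial genes on the array, 6 had a tested probe, with 3 lower and 3 higher and a median of -0.07, while over all 17 there were 12 lower and 5 higher with a median of -0.13. On 1 of 8 tested probes, a dimmer one of Egfl7, the lineage group was higher at an unadjusted p under 0.05, as on 4.84% of all tested probes. Among these Egfl7, a secreted vascular factor, lay at -0.37 (SE 0.37, limma adjusted p = 0.770), with 0.67 and -0.08 on further probes, and Slc2a1, the glucose transporter of the barrier, at 0.15 (SE 0.15, limma adjusted p = 0.778). Kdr, Tek, Cdh5, Abcb1a, Emcn, Ocln, Vwf, Slco1a4 and Tie1 were not detected on any array. The list summed to 6437 and 6123 on the virus-injected arrays and 5941 and 6660 on the lineage arrays, and these sums overlapped.

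**Figure D3:**
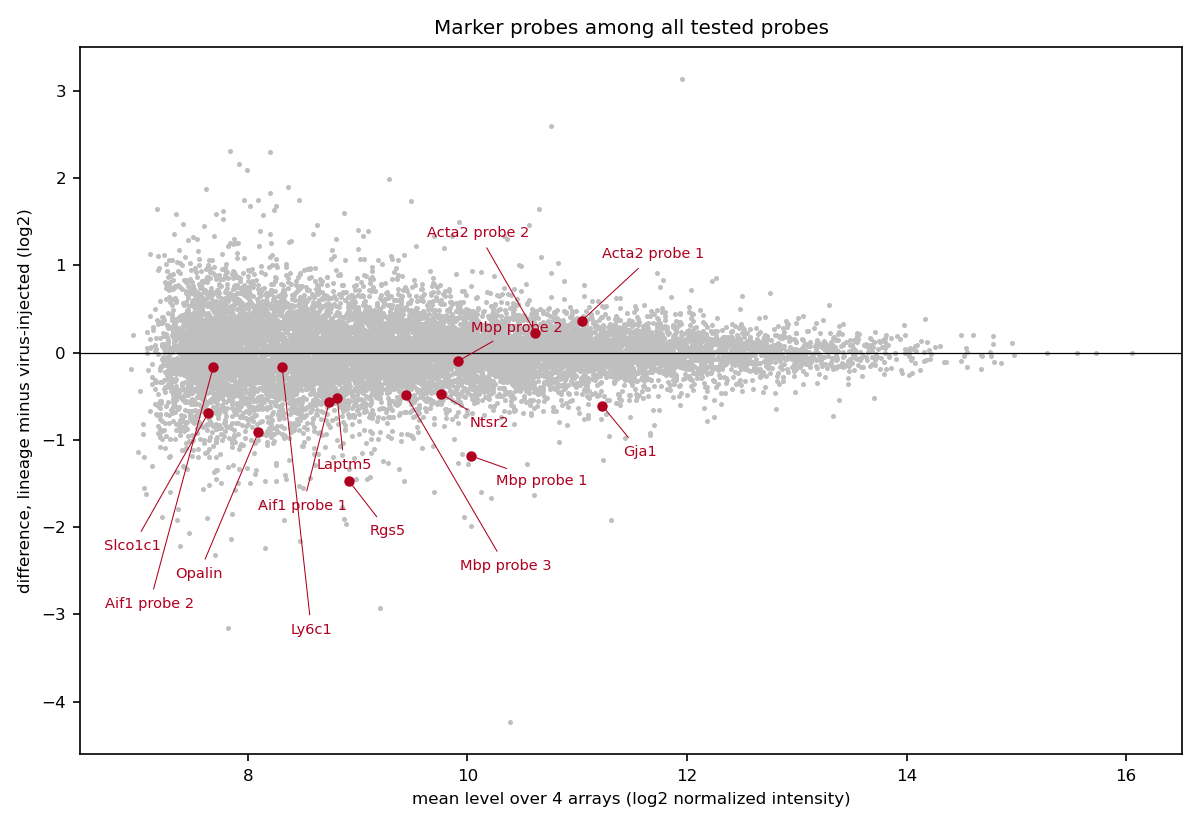
Mean level (log2 normalized intensity over 4 arrays) against the log2 difference, lineage minus virus-injected, for the 12266 tested probes in grey and the 14 tested marker probes in red. The spread of all probes narrows with brightness. For Mbp probe 1, Rgs5 and Gja1, 0.669%, 0.302% and 4.9% of all tested probes, whatever their level, are as low or lower.

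Among the 17 probes single arrays stood out. Virus-injected array 1 had the highest normalized value on 11 of the 17 and the lowest on 0. It was highest on 9 of the 14 tested probes, against 22.2% of all tested probes. Lineage array 1 was the lowest on 8 of the 17, and on 7 of the 14 tested, against 24.6% of all tested probes. The median log2 level of the 17 probes was 9.63 and 8.88 on the virus-injected arrays and 8.22 and 8.74 on the lineage arrays, so lineage array 2 came close to virus-injected array 2. An array detected 12 to 14 of the 17, against 42.7% to 47.9% of all probes. The median difference of the 17 probes was -0.32 without virus-injected array 1 and -0.37 without lineage array 1, and reached -0.63 without virus-injected array 2.

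The error over beads ranged from 2.42% to 6.26% of the intensity over the 17 probes and 4 arrays. In 16 of 34 pairs of replicate arrays, 1 pair for each probe and group, the deposited intensities differed by more than 2 times their combined bead error, on values not yet scaled between arrays.

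Both neuronal lists had medians above 0. The 16 pan-neuronal genes had a median of 0.10, with 11 higher and 5 lower in the lineage group, where 49.4% of all tested probes were lower. They summed to 110200 and 106800 on the virus-injected arrays and 115400 and 115000 on the lineage arrays. Of these genes Syt1, the calcium sensor of vesicle release, lay at -0.48 (SE 0.16, limma adjusted p = 0.437), the neurofilament gene Nefm at 0.49 (SE 0.28, limma adjusted p = 0.600) and the dendritic microtubule gene Map2 at 0.22 (SE 0.17, limma adjusted p = 0.693). The 5 POMC neuron genes had a median of 0.65, with 4 higher and 1 lower, and summed to 35440 and 37670 against 39240 and 38740. Pomc was at 0.65 (SE 0.16, limma adjusted p = 0.369; 0.00112 with a trend), Pcsk1, a convertase that cleaves the POMC precursor, at 0.98 (SE 0.19, limma adjusted p = 0.303) and the leptin receptor gene Lepr at 0.71 (SE 0.28, limma adjusted p = 0.487). The lower one was Cartpt, a peptide gene of many POMC neurons that was named after its values were seen, at -0.06. The part of these neuronal differences in the lower glial signals was not tested.

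**Figure D4:**
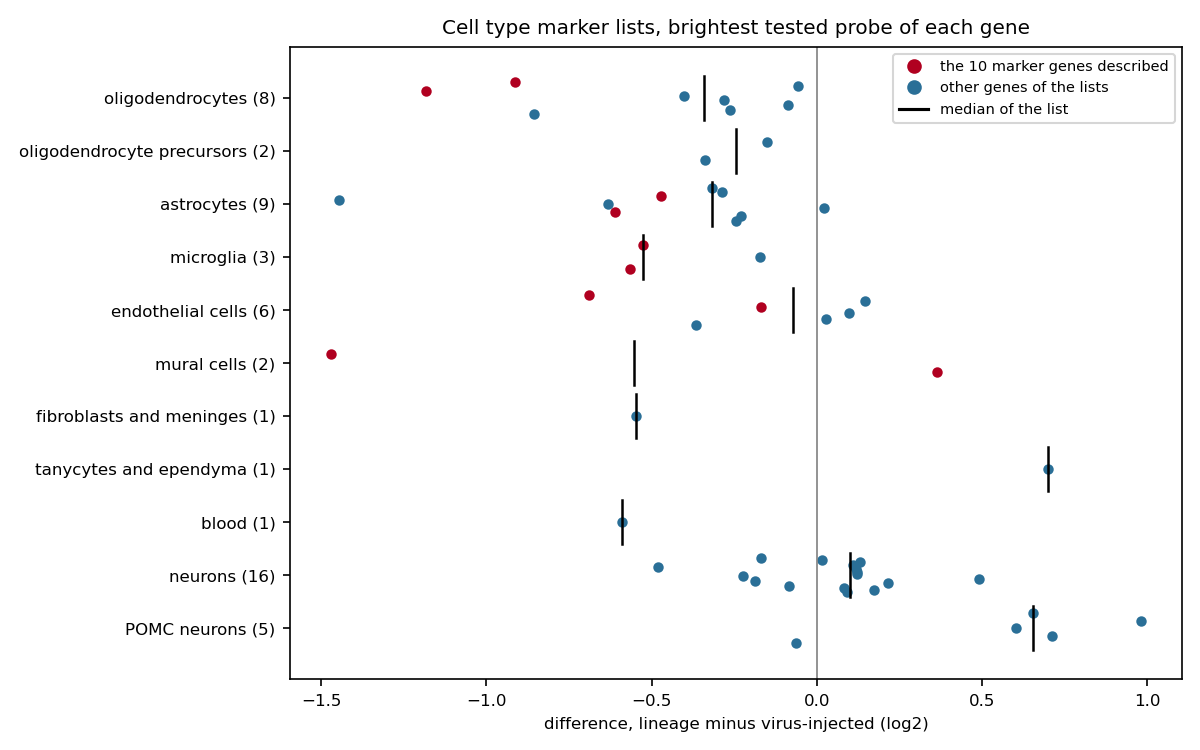
Log2 difference, lineage minus virus-injected, of the brightest tested probe of each gene in the marker lists, with the number of tested genes in brackets, the 10 described genes in red and the median of each list as a black line. All 8 oligodendrocyte genes and 8 of 9 astrocyte genes lie below 0, whereas 11 of 16 neuronal genes lie above it. Of all tested probes 49.4% lie below 0.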

How the data were processed

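For each probe and array the deposited table holds, per the file headers, an intensity averaged over beads, the number of beads, their standard error and a detection p-value. GenomeStudio made them, per the submitters' processing notes, with its version not given in the sources used here. The deposited intensities were not scaled to a common mean, since array means ran from 1111 to 1192. They still held a background that the authors' processed intensities lacked, since a constant of 416, 440, 418 and 440 had been subtracted there. The authors' processed intensities, which were linear in the deposited ones of each array and had equal array means of 718, served as an alternative only. Their column medians were 134, 126, 122 and 130, and this comparison settled scale, centring and direction.

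Background correction from the detection p-values (offset 16), quantile normalization and log2 were done with neqc of limma 3.58.1 (R 4.3.3). The test took the 12266 of 25697 probes whose detection p-value was below 0.05 on 2 or more arrays, with lmFit and eBayes in 1 fit without covariates, 2 residual degrees of freedom, and two-sided p-values adjusted by Benjamini-Hochberg over all of them. The fit was tested on simulated data. Probes of a gene are numbered from the brightest, and list differences of tested genes use the brightest tested probe. List sums take every probe of the listed genes. Since the glial and vascular lists hold the members, their counts, medians and sums partly repeat the member values. Of all probes, 23978 had 1 symbol and 1719 none in the platform annotation, and updating the members through Entrez identifiers changed 0 symbols.

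The genes named with a difference or level are the 10 members, the 3 genes of smallest p in each list, Pomc and Snap25, with Cartpt added later. Genes detected on no array were also named for the oligodendrocyte, astrocyte, microglial, endothelial and mural lists. The members and lists were chosen with earlier results of these data known. The number of arrays limits the precision. Same-numbered arrays came from different kinds of mice, and their deviations from the group means correlated at r = -0.024 over probes, so the numbers were not taken to pair the arrays. Alternatives were no background correction, cyclic loess, median scaling, no filter and a stricter filter, a trend, an unmoderated linear model, a replicate block, the authors' values and leaving out each array. Some listed genes were not analysed here.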

Additional observations from a re-analysis of the deposited data

How the results depend on the processing

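The 14 tested marker probes were recomputed under 13 alternatives, as far as they passed the filter there, which gave 177 differences, of which 173 kept their direction. The 4 that turned all came from leaving out 1 array: Laptm5 (-1.08 to 0.027 over the omissions), Slco1c1 (-1.44 to 0.026), Ly6c1 (-0.50 to 0.16) and Aif1 probe 2 (-0.69 to 0.061 over the 2 omissions in which it passed the filter), and the cause was not tested. Over all tested probes the count passing was 0, against 232 with a trend, 45 without background correction, 5 with median scaling and 1 with the authors' processed values. Of the 17 marker probes 3 passed with a trend and 1 without background correction. Of the probes of all cell type lists 5 passed with a trend (Mbp, Gja1, Mlc1 and Rgs5 lower, Pomc higher) and 1 without background correction. With the replicate number as a block 0 probes passed, as with cyclic loess, both other filters, the unmoderated linear model and each omission of an array (0 to 0), for all probes, marker probes and lists. The median difference of the 17 probes ranged from -0.63 to -0.32 with 1 array left out and was -0.28 without background correction. Omitting an array leaves 1 array in a group, which is assumed to vary like the other group. Signals near background, those of Opalin, Aif1, Laptm5, Slco1c1, Ly6c1 and, on the lineage arrays, Rgs5 (-0.79 without background correction), limit what the arrays can resolve.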

Other observations

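Markers of other non-neuronal cells of the punch were mostly at background. Of 5 genes of oligodendrocyte precursors on the array 2 had a tested probe. The proteoglycan gene Cspg4 lay at -0.34 (SE 0.23, limma adjusted p = 0.649). The growth factor receptor gene Pdgfra lay at -0.15 (SE 0.24, limma adjusted p = 0.864) and was detected on 1 of 2 arrays in each group. Of 8 genes of fibroblasts and meninges only Ptgds, the prostaglandin D synthase gene, was tested, and it lay at 8.70 ± 0.77 (SD, n = 2) on the virus-injected arrays and 8.15 ± 0.0031 on the lineage arrays. Of 6 tanycyte and ependymal genes only the filament gene Vim was tested, at 0.70 (SE 0.36, limma adjusted p = 0.563). Its probe was detected on 1 of 2 virus-injected arrays and on both lineage arrays. The alpha globin gene Hba-a1 of red blood cells was detected on 1 of 2 arrays in each group and lay at -0.59 (SE 0.50, limma adjusted p = 0.726).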
